A study of Mus musculus with 6 samples.

Results

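The genes described here encode the repressive chromatin machinery of mouse cells: 11 genes of Polycomb repressive complex 2 and its opposing demethylase, 22 of Polycomb repressive complex 1 and of the ASXL cofactors of its opposing deubiquitinase, 3 of heterochromatin protein 1 (HP1) and 5 methyltransferases of lysine 9 on histone H3. They were taken by gene symbol from a fixed list of 41, and all 41 were found among the 23284 genes of the count table. RNA-seq had been carried out on 2 mouse lines, with 3 libraries per line from separate flasks. MV+ cells, the Pax6-ON line of the study, came from lens epithelium of a wild-type C57BL6 mouse. RAG cells, the Pax6-OFF line, came from a renal adenocarcinoma of the BALB/c strain. The study calls both lines immortalized and describes no gene deletion and no treatment of either. Tissue of origin, strain and malignancy therefore cannot be told apart in any comparison below, each line is 1 isolate, and p-values measure the spread between cultures of that isolate only. The sex of the lines is not known to the study, which bears on the 2 members on the X chromosome, Rbbp7 and Suv39h1.

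Polycomb repressive complex 2 (PRC2) methylates lysine 27 of histone H3, and Polycomb repressive complex 1 (PRC1) ubiquitinates histone H2A and can compact the fibre. HP1 proteins bind methylated lysine 9 of histone H3, which SUV39H, EHMT and SETDB1 enzymes write, and they mark constitutive heterochromatin. Both systems are assembled from paralogues that replace one another, and some of these assemblies differ in their partners and targets, so the relative level of paralogues is described below beside the level of each gene.

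Counts assigned to genes amounted to between 17413045 and 22428230 in MV+ libraries and between 28252165 and 43168532 in RAG libraries, with 12.4% to 20.1% of them in the ribosomal RNA precursor gene Rn45s. Levels are given as FPKM (fragments per kilobase of exon per fixed number of assigned reads), which are scaled by exon length and by the total but not by TMM. Differences are given as log2 fold changes, MV+ minus RAG, from an edgeR fit with TMM normalization across all genes. The scalings are not equal: read from FPKM, differences of all genes were shifted towards MV+ by a median of 0.17 on the log2 scale. Of 8 lens epithelium markers, 5 reached 1 FPKM in MV+, with Foxe3 at 0 and Cryaa at no more than 0.488 FPKM in any MV+ library. In RAG 2 of the 8 did so, Cryab and Maf, at means of 59.3 and 19.1 FPKM against 31.9 and 7.53 in MV+. Of 8 kidney markers 7 reached 1 FPKM in RAG and 1 in MV+, Emx2, at 4.68 FPKM against 3.01 in RAG. The insulin genes Ins1 and Ins2, which mark pancreatic islet cells, were read at low level in MV+, with 1 count of Ins1 and 0 of Ins2 in RAG. Ins2 stood at 5.39, 4.22 and 1.82 FPKM in MV+ libraries 1, 2 and 3, so counts of calls were also recomputed without libraries 1 and 2. Endothelial and neuronal markers were at most 0.340 FPKM in every library, and of 3 leukocyte markers only Cd68 reached 1 FPKM, in both lines. In bulk RNA, fewer cells that express a gene and less RNA per cell cannot be told apart.

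Nearly the whole machinery was expressed in both lines. Of the 41 members, 39 had a mean of at least 1 FPKM in both, against 74.5% of all genes tested, and the order of their levels was much alike in the lines (Spearman rho 0.94 over 40 members, whose levels share exon length and mappability). The exceptions were Asxl3, with 0 counts in all 6 libraries, and Kdm6b, which was under 1 FPKM in RAG. Means ranged from 1.68 to 117 FPKM in MV+ and from 0.244 to 158 FPKM in RAG, with the histone-binding subunits Rbbp4 and Rbbp7 and the HP1 gene Cbx5 at the top. Between the libraries of a line, the median coefficient of variation of these genes was 6.60% in MV+ and 7.27% in RAG. Single members varied more, up to 16.6% in MV+ (Suz12) and 43.6% in RAG (Kdm6b).

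**Figure D1:**
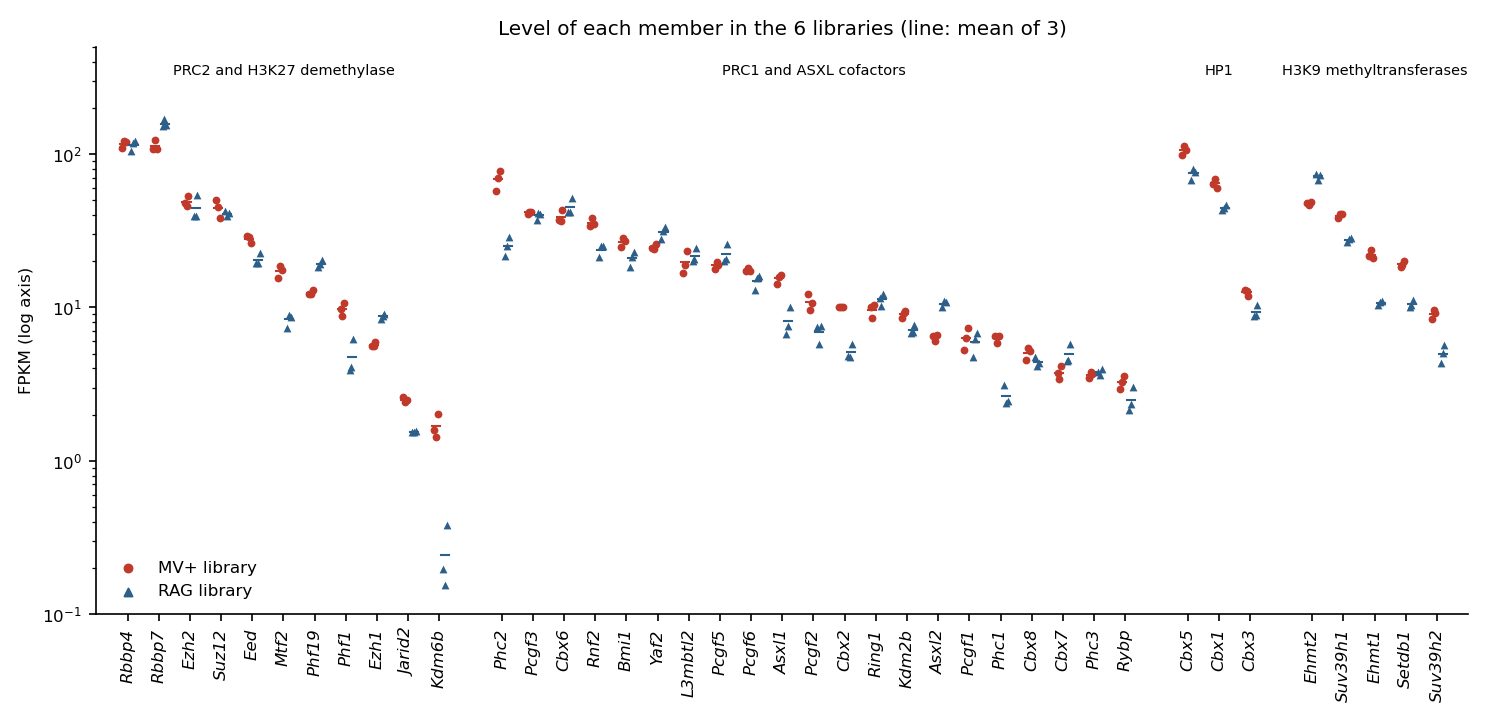
Level of each of the 40 tested members in FPKM on a log axis, 1 point per library (circles MV+, triangles RAG) with the mean of 3 as a short line. Most pairs of groups lie close together, and Kdm6b is the member whose groups are farthest apart, with 1.42 to 2.03 FPKM in MV+ and 0.154 to 0.380 in RAG.

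At an adjusted p under 0.05, 33 of the 40 tested members differed between the lines, which is 82.5% of them beside 79.3% of all 12965 genes tested. A call is therefore the usual outcome of this comparison and does not set the members apart. In MV+, 20 members were higher, beside 40.4% of all genes, and 13 were lower, beside 38.9%. Normalized libraries of the lines did not overlap for 34 members, where the share over all genes was 80.6%. Differences were small: only Kdm6b, Phc2 and Phc1 were called past 2-fold, beside 35.2% of all genes. The median absolute log2 fold change of the members was 0.42, against 0.66 over all genes, and their median was 0.17, against 0.03.

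The balance of higher and lower members was not the same in each group, and the groups were not tested as sets. Over all genes 40.4% were called higher and 38.9% lower. Called shares were 81.8% in the PRC2 group, 76.2% in the PRC1 group and 100% in the HP1 and lysine 9 groups, beside 79.3% of all genes. Of 11 genes of PRC2 and its demethylase, 5 were higher in MV+, 4 were lower and 2 were not called. Of 21 tested genes of PRC1 and the ASXL cofactors, 8 were higher, 8 were lower and 5 were not called. All 3 HP1 genes and 4 of 5 lysine 9 methyltransferase genes were higher, and Ehmt2 was lower. Without MV+ libraries 1 and 2, a fit added after the data were seen that leaves 1 MV+ library assumed to vary as the others do, 27 members were called, 15 higher and 12 lower, and of all 13399 genes tested in that fit 70.1% were called.

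**Figure D2:**
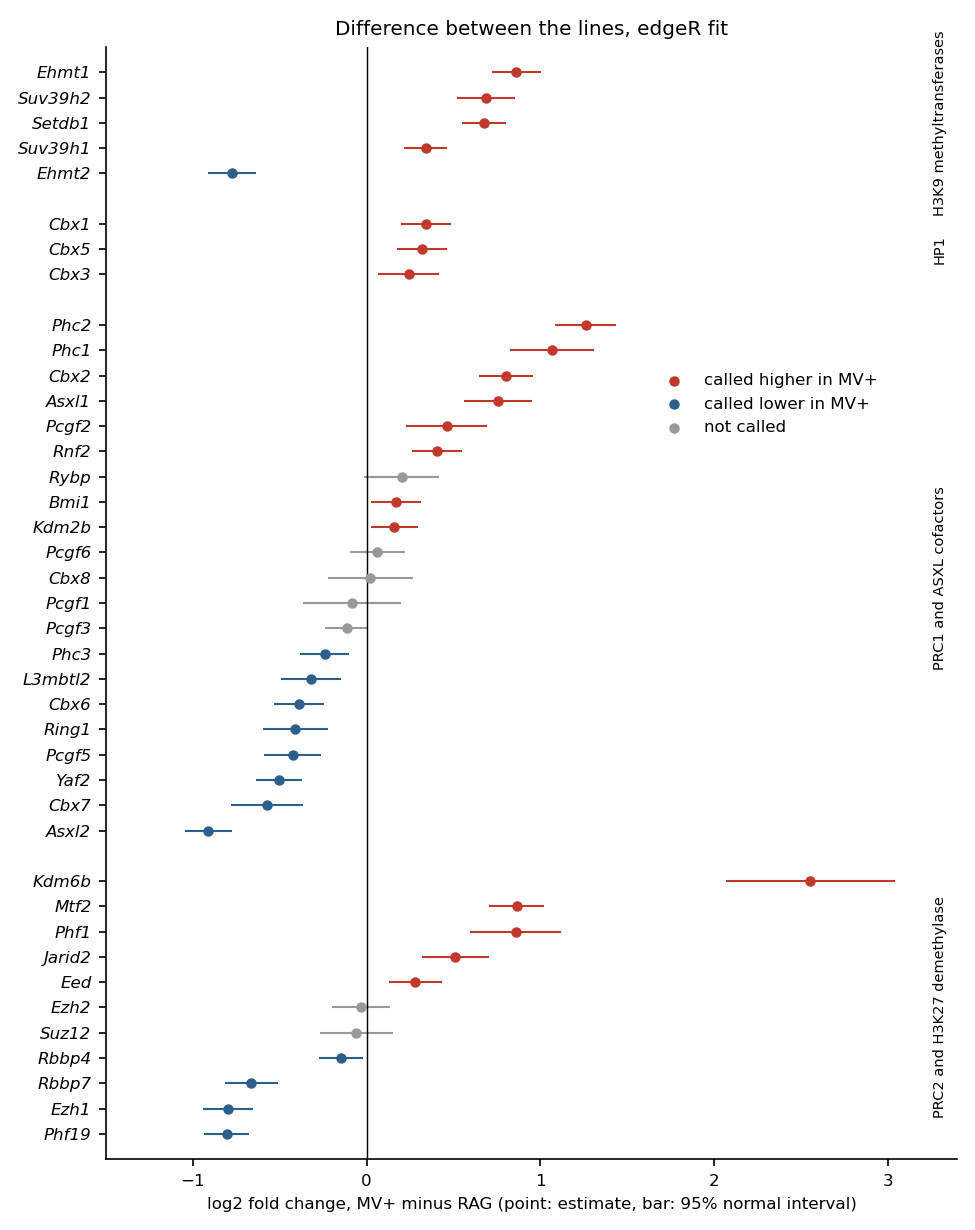
Log2 fold change of each tested member (MV+ minus RAG) with its 95% normal interval, coloured by call. In each group but HP1 members lie on both sides of 0, and most lie within 1 log2 unit of it.

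The core of PRC2 differed little. Ezh2, its main methyltransferase in dividing cells, stood at 47.7, 46.1 and 53.1 FPKM in MV+ and at 39.6, 39.6 and 53.8 in RAG, groups that overlapped. Its log2 fold change was -0.03 ± 0.09 (SE), with an adjusted p of 0.730 by edgeR, with a 95% normal interval of the ratio RAG to MV+ from 0.911 to 1.15. Suz12, the scaffold subunit, stood at 50.5, 45.0 and 38.3 FPKM in MV+ and 42.5, 39.4 and 41.0 in RAG (log2 fold change -0.06 ± 0.11, edgeR adjusted p = 0.630). Here the MV+ libraries spread across those of RAG, and without MV+ libraries 1 and 2 the value became -0.32 and passed the test (adjusted p = 0.0129). Eed, which binds trimethylated lysine 27 and stimulates the enzyme, was higher in MV+, at 28.1 ± 1.6 FPKM against 20.4 ± 1.84 (SD, n = 3 each), with a log2 difference of 0.28 ± 0.08 and an edgeR adjusted p of 0.00374. That call was lost without MV+ libraries 1 and 2 (0.15, adjusted p = 0.228).

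The less active methyltransferase Ezh1 was lower in MV+ in every library. It stood at 5.57, 5.56 and 5.97 FPKM in MV+ and at 8.39, 8.76 and 9.06 FPKM in RAG (log2 fold change -0.80 ± 0.07, edgeR adjusted p = 8.40e-08). Ezh1 made up 10.4% ± 0.316 of the summed FPKM of both methyltransferase genes in MV+ and 16.7% ± 1.97 in RAG (SD, n = 3 each), and Ezh2 dominated in both lines. Rbbp7, a histone chaperone shared by PRC2 and other complexes, was lower in MV+ as well, at 113 ± 8.86 against 158 ± 9.21 FPKM (log2 fold change -0.66 ± 0.08, edgeR adjusted p = 1.46e-06). Its paralogue Rbbp4 stood at 110, 122 and 121 FPKM in MV+ and 105, 117 and 122 FPKM in RAG. The called value of -0.15 ± 0.06 (edgeR adjusted p = 0.0458) lay at the threshold. It was lost without MV+ library 1 (-0.12, adjusted p = 0.188), MV+ library 3 (0.0785), RAG library 2 (0.126) or RAG library 3 (0.0537) and with RLE or upper quartile normalization, and its sign turned to 0.03 on the FPKM scale.

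The accessory subunits, which steer PRC2 to chromatin, moved in opposite directions within 1 family. Mtf2, Phf1 and Phf19 encode the Polycomb-like proteins, alternative subunits that bind unmethylated CpG-rich DNA and methylated lysine 36 of histone H3. Mtf2 (chr5:108494693-108538238 in mm9) was higher in MV+, at 15.6, 18.7 and 17.4 FPKM against 7.38, 8.97 and 8.70 in RAG (log2 fold change 0.86 ± 0.08, edgeR adjusted p = 8.41e-08). Phf1 was also higher, at 9.77 ± 0.970 FPKM against 4.75 ± 1.30 (log2 fold change 0.86 ± 0.13, edgeR adjusted p = 5.37e-05). Phf19 (chr2:34749275-34769496) was lower, at 12.2, 12.2 and 13.0 FPKM against 18.3, 19.1 and 20.4 (log2 fold change -0.81 ± 0.07, edgeR adjusted p = 1.72e-08). Libraries of the lines did not overlap for any of the 3 genes.

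Mtf2 held the greatest share of the summed FPKM of this family in MV+, 43.6% ± 3.02 against 25.8% ± 1.78 in RAG. Phf19 held the greatest share in RAG, 59.7% ± 2.05 against 31.7% ± 0.833 in MV+ (SD, n = 3 each). The alternative subunits of the other form of PRC2, Jarid2 and Aebp2, were both higher in MV+. Jarid2, which binds and helps to recruit the complex, stood at 2.60, 2.40 and 2.47 FPKM in MV+ and 1.53, 1.53 and 1.55 in RAG (log2 fold change 0.51 ± 0.10, edgeR adjusted p = 2.04e-04). Aebp2, a zinc finger subunit that is no member of the list of 41, stood at 17.1 ± 0.898 and 8.81 ± 0.211 FPKM (log2 fold change 0.77 ± 0.07, edgeR adjusted p = 7.01e-08). The summed FPKM of the 3 Polycomb-like genes was 2.02 ± 0.143 times that of Jarid2 and Aebp2 in MV+ and 3.13 ± 0.266 times in RAG, without overlap (exact permutation p = 0.1, the smallest that 3 against 3 libraries allow). This and the other ratios of summed levels below were chosen after the values were seen.

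Kdm6b, a demethylase that removes methyl groups from lysine 27, had the greatest difference of all members. The gene (chr11:69212020-69227177) stood at 1.59, 1.42 and 2.03 FPKM in MV+ and at 0.196, 0.154 and 0.380 FPKM in RAG, with every MV+ library above every RAG library. The log2 fold change was 2.56 ± 0.25 (edgeR adjusted p = 4.57e-06), a 5.88-fold difference with 95% normal bounds of 4.20 and 8.23. It was read at low level, from 672 counts in the MV+ libraries together and 182 in those of RAG, and RAG library 3 alone held 109 of the latter. Its coefficient of variation in RAG, 43.6%, was the highest of any member. On the log2(FPKM + 1) scale of limma, which understates changes of low genes, the value was 1.11. The second demethylase of this lysine, Kdm6a, which escapes X inactivation in mouse, was also higher in MV+ (log2 fold change 0.54 ± 0.07, edgeR adjusted p = 6.20e-06).

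The catalytic pair of PRC1 diverged. Rnf2 encodes RING1B, the main H2A ubiquitin ligase in embryonic stem cells, and stood at 33.8, 38.5 and 35.0 FPKM in MV+ and 21.2, 25.1 and 25.3 in RAG (log2 fold change 0.40 ± 0.07, edgeR adjusted p = 1.33e-04). Its paralogue Ring1 was lower by the fit (-0.41 ± 0.10 on the log2 scale, edgeR adjusted p = 0.00109), at 9.99, 8.49 and 10.4 against 11.5, 10.2 and 12.1 FPKM. For Ring1 the FPKM of the lines overlapped while normalized counts did not, and the call was lost on the FPKM scale (-0.21, limma adjusted p = 0.0744). Rnf2 held 78.7% ± 2.77 of the summed FPKM of both in MV+ and 67.8% ± 3.09 in RAG (SD, n = 3 each).

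Canonical PRC1 joins a RING protein to a CBX reader, a PHC polymerizing subunit and PCGF2 or BMI1. Of its 9 tested members outside the RING genes, 5 were higher in MV+, 3 were lower and 1 was not called. The called share was 88.9%, beside 79.3% of all genes. The polyhomeotic genes Phc2 and Phc1 had the greatest differences among them. Phc2 (chr4:128331946-128430125) stood at 57.7, 69.8 and 77.5 FPKM in MV+ and 21.8, 25.0 and 28.6 FPKM in RAG (log2 fold change 1.26 ± 0.09, edgeR adjusted p = 6.69e-09). Phc1 stood at 6.51, 5.87 and 6.54 FPKM and at 3.11, 2.36 and 2.47 FPKM (log2 fold change 1.07 ± 0.12, edgeR adjusted p = 1.40e-06). Neither gene had overlapping libraries. Phc3 had a small difference of the other sign (-0.24 ± 0.07, edgeR adjusted p = 0.00647), which was lost on the FPKM scale (-0.05, limma adjusted p = 0.560). Phc2 made up 87.2% ± 1.64 of the family in MV+ and 79.5% ± 3.09 in RAG.

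The chromodomain readers of lysine 27 methylation were led by Cbx6 in both lines. Cbx2, whose protein compacts nucleosome arrays, stood at 10.1, 10.1 and 10.0 FPKM in MV+ and 4.79, 4.76 and 5.75 in RAG (log2 fold change 0.80 ± 0.08, edgeR adjusted p = 1.71e-07). Cbx7 was lower in MV+, at 3.73, 3.41 and 4.11 FPKM against 4.48, 4.56 and 5.75 (log2 fold change -0.57 ± 0.11, edgeR adjusted p = 1.35e-04). Cbx6 was lower in the fit (-0.39 ± 0.07, edgeR adjusted p = 1.68e-04), though its FPKM values overlapped and the call was lost on that scale (-0.20, limma adjusted p = 0.0932). Cbx8 did not pass the test, at 5.06 ± 0.469 and 4.40 ± 0.285 FPKM (log2 fold change 0.02 ± 0.12, edgeR adjusted p = 0.877). Of the summed FPKM of these 4 readers, Cbx2 held 17.4% ± 1.23 in MV+ and 8.54% ± 0.0310 in RAG, and Cbx6 held 67.4% ± 1.59 and 75.8% ± 0.741.

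Among the PCGF genes, which define the kind of PRC1, the pair of canonical PRC1 was higher in MV+. Pcgf2 stood at 12.2, 9.54 and 10.7 FPKM in MV+ and at 7.47, 5.78 and 7.51 FPKM in RAG (log2 fold change 0.46 ± 0.12, edgeR adjusted p = 0.00271). Bmi1, a gene known for repressing Cdkn2a, stood at 26.7 ± 1.78 and 21.0 ± 2.47 FPKM. Its small difference (0.17 ± 0.07, edgeR adjusted p = 0.0438) was lost without MV+ library 2 (0.13, adjusted p = 0.178), MV+ library 3 (adjusted p = 0.0618) or RAG library 1 (0.11, adjusted p = 0.197). Of the PCGF genes of variant PRC1, Pcgf5 was lower in MV+ at 18.9 ± 1.05 against 22.3 ± 3.22 FPKM (log2 fold change -0.42 ± 0.08, edgeR adjusted p = 2.60e-04), a call lost on the FPKM scale. Pcgf1, Pcgf3 and Pcgf6 did not pass the test, with log2 fold changes of -0.08, -0.11 and 0.06, though Pcgf6 passed it on the filtered FPKM scale. Pcgf3 was the most abundant gene of the family in both lines, at 34.2% ± 0.380 and 36.0% ± 1.75 of its summed FPKM. With the replicate number as a block, Pcgf3 passed the test at a log2 fold change of -0.11 (adjusted p = 0.0311).

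In variant PRC1, RYBP or YAF2 replaces the CBX reader. Of 8 members of these complexes, 1 was higher, 3 were lower and 4 were not called, so 50.0% were called beside 79.3% of all genes, a difference that was not tested. Their log2 fold changes ran from -0.50 to 0.20. Yaf2 was lower in MV+, at 24.2, 24.2 and 25.9 FPKM against 28.1, 31.7 and 33.2 (log2 fold change -0.50 ± 0.07, edgeR adjusted p = 5.58e-06). Rybp stood at 2.95, 3.25 and 3.59 FPKM in MV+ and at 2.14, 2.35 and 3.02 in RAG, groups that overlapped (log2 fold change 0.20 ± 0.11, edgeR adjusted p = 0.105). It passed the test with the replicate number as a block (0.20, adjusted p = 0.0435) and without RAG library 3 (0.31, adjusted p = 0.0250), as well as with upper quartile normalization. L3mbtl2, a subunit of the PCGF6 complex, was lower by the fit (-0.32 ± 0.09, edgeR adjusted p = 0.00352), with FPKM values that overlapped. The call was lost on the FPKM scale (-0.14) and without MV+ libraries 1 and 2 (-0.12, adjusted p = 0.313). Kdm2b, which binds CpG islands and brings the PCGF1 complex to them, was higher by the fit (0.16 ± 0.07, edgeR adjusted p = 0.0432). That call held without MV+ library 1 but was lost without any other single library, with adjusted p between 0.0786 and 0.120.

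The ASXL genes encode cofactors of BAP1, the deubiquitinase that removes the PRC1 mark from H2A. Asxl1 (chr2:153171875-153229743) was higher in MV+, at 14.2, 15.9 and 16.4 FPKM against 6.66, 7.53 and 10.1 in RAG (log2 fold change 0.76 ± 0.10, edgeR adjusted p = 1.09e-05). Asxl2 (chr12:3426857-3506849) was lower, at 6.49, 6.04 and 6.64 FPKM against 10.0, 10.9 and 10.8 (log2 fold change -0.91 ± 0.07, edgeR adjusted p = 8.19e-09), the lowest value among members. Libraries did not overlap for either gene, and by mean FPKM the leading paralogue was a different one in each line. Asxl1 held 70.7% ± 1.99 of their summed FPKM in MV+ and 43.0% ± 4.60 in RAG (SD, n = 3 each). The lead of Asxl2 was narrow in RAG library 3, at 51.7% against 48.3%. By counts per unique window, a measure described below, the RAG means were 52.9% for Asxl2 and 47.1% for Asxl1. The enzyme gene itself, Bap1, was read outside the list of 41. It stood at 29.9, 31.6 and 33.5 FPKM in MV+ and 136, 135 and 154 FPKM in RAG (log2 fold change -2.34 ± 0.07, edgeR adjusted p = 3.45e-14). For each unit of summed Asxl1 and Asxl2 FPKM there were 1.45 ± 0.00795 units of Bap1 in MV+ and 7.61 ± 0.469 in RAG (exact permutation p = 0.1).

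The HP1 genes were all higher in MV+, and by FPKM their shares of the family overlapped between the lines. Cbx5, which encodes HP1 alpha, stood at 98.0, 113 and 107 FPKM in MV+ and at 67.6, 79.9 and 76.9 FPKM in RAG (log2 fold change 0.32 ± 0.07, edgeR adjusted p = 9.00e-04). Cbx1, which encodes HP1 beta, stood at 64.1, 69.2 and 60.1 FPKM and at 43.3, 44.8 and 46.4 FPKM (log2 fold change 0.34 ± 0.07, edgeR adjusted p = 5.88e-04). Cbx3, which encodes HP1 gamma and is also found at active genes and lies at chr6:51420615-51433703, stood at 13.0, 12.9 and 11.8 FPKM and at 8.83, 8.87 and 10.4 FPKM (log2 fold change 0.24 ± 0.09, edgeR adjusted p = 0.0216). In all 3 genes each MV+ library lay above each RAG library. The Cbx3 call was lost without MV+ library 1 (0.20, adjusted p = 0.0840), MV+ library 2 (adjusted p = 0.0623), RAG library 1 (adjusted p = 0.0526) or RAG library 2 (adjusted p = 0.0742). Without MV+ libraries 1 and 2 only Cbx5 of the 3 was called, with Cbx1 at 0.20 (adjusted p = 0.0830) and Cbx3 at 0.12 (adjusted p = 0.424).

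Cbx3 appears to be the scarce HP1 gene in these FPKM values, but its level cannot be read from them. Reads of 50 bases that aligned to several places were not counted, and 1334 of the 1509 windows of 50 bases in Cbx3 exons, 88.4%, also occur exactly elsewhere in the mm9 genome. They fall in 18 other loci, of which 10 hold at least 100 windows each, among them Gm6984 on chromosome 14 with 1320 and Gm10068 on chromosome 1 with 1031. An exon that is copied throughout and an exon with some unique sequence are printed below to show the contrast, from the mm9 genome (NCBIM37), with capitals for bases that lie in a window occurring once. In exon 3 of 6, all 94 windows occur elsewhere, with up to 8 other copies, and in exon 5, 36 of 46 windows occur once.
Cbx3 exon 3, chr6:51425230-51425372, plus strand: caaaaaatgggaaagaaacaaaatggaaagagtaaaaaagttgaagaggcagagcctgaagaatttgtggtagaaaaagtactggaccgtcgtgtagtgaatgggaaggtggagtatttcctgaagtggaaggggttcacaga
Cbx3 exon 5, chr6:51431723-51431817, plus strand: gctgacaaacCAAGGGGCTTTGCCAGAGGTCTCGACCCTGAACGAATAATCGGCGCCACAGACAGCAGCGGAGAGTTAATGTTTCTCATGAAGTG

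When counts were divided by the number of windows that occur once instead of exon length, the Cbx3 share went from 6.88% to 40.0% of the HP1 family in MV+ and from 7.26% to 41.5% in RAG. Cbx5 then stood at 34.1% and 33.5%, and Cbx1 at 25.9% and 25.1%. This measure was added after the data were seen and treats every unique window as equally covered. Its windows lie within single exons, while the counts also hold reads across exon junctions. Shares of genes without any copied window moved as well, that of Ezh1 in MV+ from 10.4% to 8.92%. By either measure the HP1 shares were close between the lines. By FPKM the libraries overlapped for all 3 HP1 genes, with exact permutation p of 0.7 for Cbx1, 0.4 for Cbx3 and 0.9 for Cbx5. Rybp was affected in the same manner, with 80.5% of its windows elsewhere, chiefly in the pseudogene Gm6910 on chromosome 13, and its share of the Rybp and Yaf2 sum in MV+ moved from 11.6% to 38.9%. Of the other members Pcgf1 had 44.6% of windows elsewhere, Kdm2b 29.4%, Rbbp7 22.3%, Bmi1 20.3%, Asxl1 13.9% and Setdb1 10.5%, while 33 members were under 5% and 23 had none. The reference genome is of the C57BL6 strain, and what bases that differ in BALB/c do to the alignment of such reads was not tested.

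**Figure D3:**
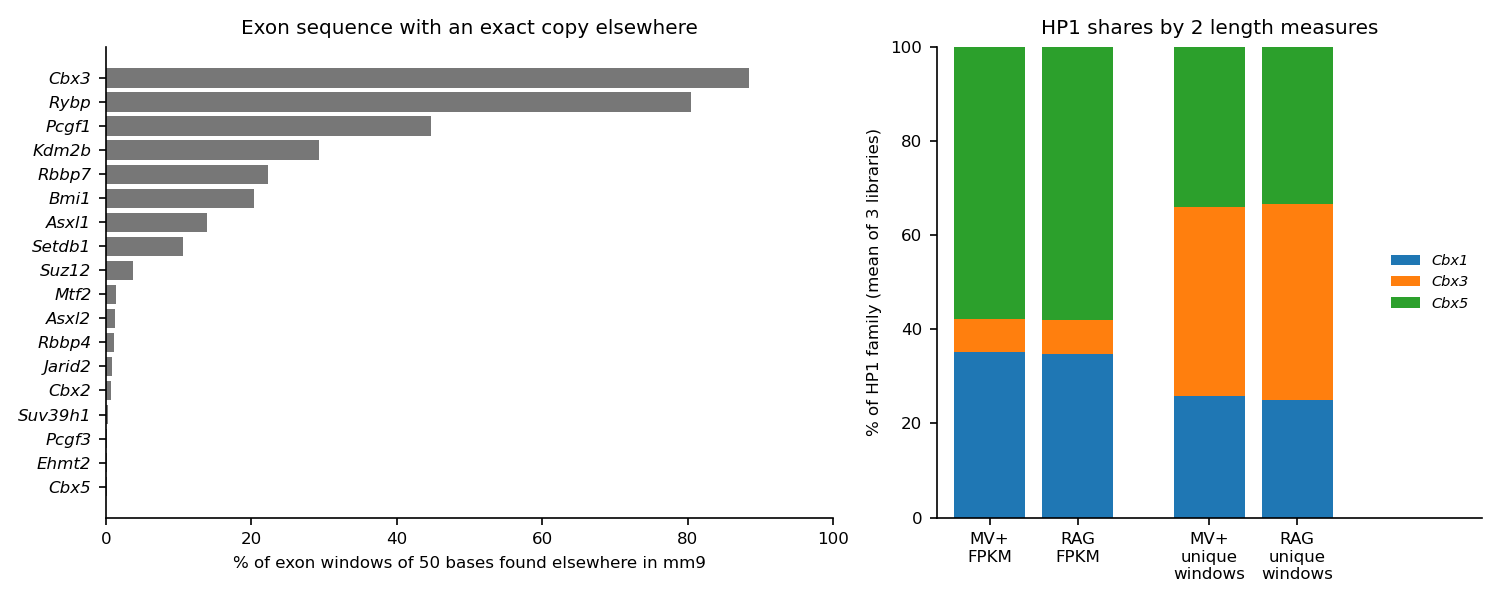
Left, percentage of 50-base exon windows with an exact copy elsewhere in mm9, for the 18 members with any, led by Cbx3 at 88.4% and Rybp at 80.5%. Right, mean share of each HP1 gene over 3 libraries per line by FPKM and by counts per window that occurs once, where the Cbx3 segment grows from about 7% to about 40% in both lines.

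The methyltransferases of lysine 9 were higher in MV+ with 1 exception. Ehmt1 and Ehmt2 encode GLP and G9a, which act as a heterodimer to write mono- and dimethylation of lysine 9, and they moved in opposite directions. Ehmt1 (chr2:24646294-24775110 in mm9) stood at 21.7, 23.7 and 21.0 FPKM in MV+ and 10.3, 10.9 and 11.0 FPKM in RAG (log2 fold change 0.86 ± 0.07, edgeR adjusted p = 2.29e-08). Ehmt2 (chr17:35035444-35050992) stood at 48.0, 46.4 and 48.4 FPKM in MV+ and 74.6, 67.6 and 73.0 FPKM in RAG (log2 fold change -0.78 ± 0.07, edgeR adjusted p = 5.96e-08). Neither gene had overlapping libraries, and both calls held in all 17 alternative fits. Ehmt2 was the more abundant in each line, at 2.16 ± 0.179 times Ehmt1 in MV+ and 6.69 ± 0.520 times in RAG (SD, n = 3 each, exact permutation p = 0.1).

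Trimethylation of lysine 9 is written by SUV39H1 and SUV39H2 at repeats near centromeres and by SETDB1 at retroviral elements and zinc finger gene clusters. Suv39h1 stood at 38.3, 40.5 and 40.5 FPKM in MV+ and at 26.5, 28.0 and 28.6 FPKM in RAG (log2 fold change 0.34 ± 0.06, edgeR adjusted p = 1.32e-04). Suv39h2, whose expression is highest in testis of adult mice, stood at 8.45, 9.65 and 9.25 FPKM against 4.33, 5.02 and 5.65 (log2 fold change 0.69 ± 0.08, edgeR adjusted p = 1.99e-06). Setdb1 stood at 18.4, 18.8 and 20.04 FPKM against 10.0, 10.4 and 11.2 (log2 fold change 0.68 ± 0.06, edgeR adjusted p = 1.03e-07). For each of these genes the lines were separated in every library. Suv39h1 was the main paralogue of its pair, at 81.4% ± 0.578 in MV+ and 84.7% ± 1.24 in RAG.

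Promoters of Ehmt1 and Ehmt2 and of Mtf2 and Phf19, paralogues called in opposite directions, are printed to show what sequence they share, as 300 bases from 250 before to 50 after a RefSeq start on GRCm38.p6, read along the gene. Capitals mark matches on either strand to the GC box letters GGGCGG, which bind SP1, and to the E2F letters TTTCCCGC, TTTCGCGC, TTTGCCGC or TTTGGCGC. For Ehmt2 and Mtf2 the first of the listed starts is shown.
Ehmt1 promoter, chr2:24919560-24919859, minus strand: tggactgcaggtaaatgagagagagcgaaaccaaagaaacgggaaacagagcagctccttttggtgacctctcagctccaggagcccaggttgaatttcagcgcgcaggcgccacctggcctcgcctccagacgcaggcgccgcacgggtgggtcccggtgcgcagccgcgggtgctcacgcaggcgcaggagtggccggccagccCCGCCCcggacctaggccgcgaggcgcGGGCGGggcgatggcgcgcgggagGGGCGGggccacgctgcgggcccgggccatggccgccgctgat
Ehmt2 promoter, chr17:34898224-34898523, plus strand: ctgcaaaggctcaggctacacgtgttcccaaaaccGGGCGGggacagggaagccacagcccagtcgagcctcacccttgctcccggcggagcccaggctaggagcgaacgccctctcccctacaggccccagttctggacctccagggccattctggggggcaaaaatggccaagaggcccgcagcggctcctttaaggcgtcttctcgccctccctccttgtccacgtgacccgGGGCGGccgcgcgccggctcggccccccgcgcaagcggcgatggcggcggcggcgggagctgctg
Mtf2 promoter, chr5:108065424-108065723, plus strand: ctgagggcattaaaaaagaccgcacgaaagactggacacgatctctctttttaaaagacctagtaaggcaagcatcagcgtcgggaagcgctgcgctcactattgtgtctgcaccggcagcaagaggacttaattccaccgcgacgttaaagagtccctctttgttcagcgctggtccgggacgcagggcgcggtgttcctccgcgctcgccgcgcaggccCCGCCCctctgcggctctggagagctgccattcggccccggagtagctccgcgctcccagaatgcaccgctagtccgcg
Phf19 promoter, chr2:34913927-34914226, minus strand: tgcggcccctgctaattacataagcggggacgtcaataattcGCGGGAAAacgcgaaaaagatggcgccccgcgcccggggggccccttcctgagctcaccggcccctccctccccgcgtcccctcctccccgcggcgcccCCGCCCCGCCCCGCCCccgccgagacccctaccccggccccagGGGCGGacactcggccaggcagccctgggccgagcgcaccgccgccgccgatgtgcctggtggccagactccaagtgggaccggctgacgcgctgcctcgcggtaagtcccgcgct

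All 4 hold a GC box, and among them only Phf19 holds E2F letters. Over the 35 members found in the promoter table, with 48 promoters, the GC box was present in 77.1% of promoters against 35.7% of all 32851 promoters of the same length. E2F letters were present in 5 of 48, 10.4%, against 2.26% of all, in a promoter of Ezh2, Suz12, Phf19, Cbx3 and Suv39h1. The letters CCAAT were present in 39.6% against 37.4%. The median count of CpG in the 300 bases was 28 for members and 7 for all promoters, and what part of the GC box and E2F shares goes with that composition was not tested. Of the 5 genes with E2F letters, Cbx3 and Suv39h1 were higher in MV+, Phf19 was lower, and Ezh2 and Suz12 were not called. Over all genes 40.4% were called higher and 38.9% lower. Of 20 proliferation genes, 5 were higher in MV+ and 9 were lower (median -0.06 on the log2 scale). Their called share was 70.0%, beside 79.3% of all genes. Their summed FPKM ran from 1550 to 1596 in MV+ and from 2030 to 2222 in RAG. The part of proliferation in the levels of these members was not tested.

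Across 12 families of paralogues, 7 had called members of opposite direction: the Polycomb-like, RING, CBX, PHC, PCGF, ASXL and EHMT genes. Over all genes 40.4% were called higher and 38.9% lower, so calls of both directions within a family are common in this comparison. Whether 7 is more than unrelated genes would give was not tested. The lower calls of Ring1, Phc3 and Pcgf5, which were the lower members of the RING, PHC and PCGF families, were lost on the FPKM scale. Of 33 shares of a family compared between the lines, 26 did not overlap between libraries. For single genes the normalized libraries of the lines did not overlap in 80.6% of all genes tested. Separation of the libraries is therefore usual here and does not set the shares apart. Since 3 against 3 libraries cannot go under an exact two-sided permutation p of 0.1, none passed the test, and the smallest p adjusted over the 33 was 0.127. Shares of genes in a pair or trio are tied, so these 26 are not separate results.

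**Figure D4:**
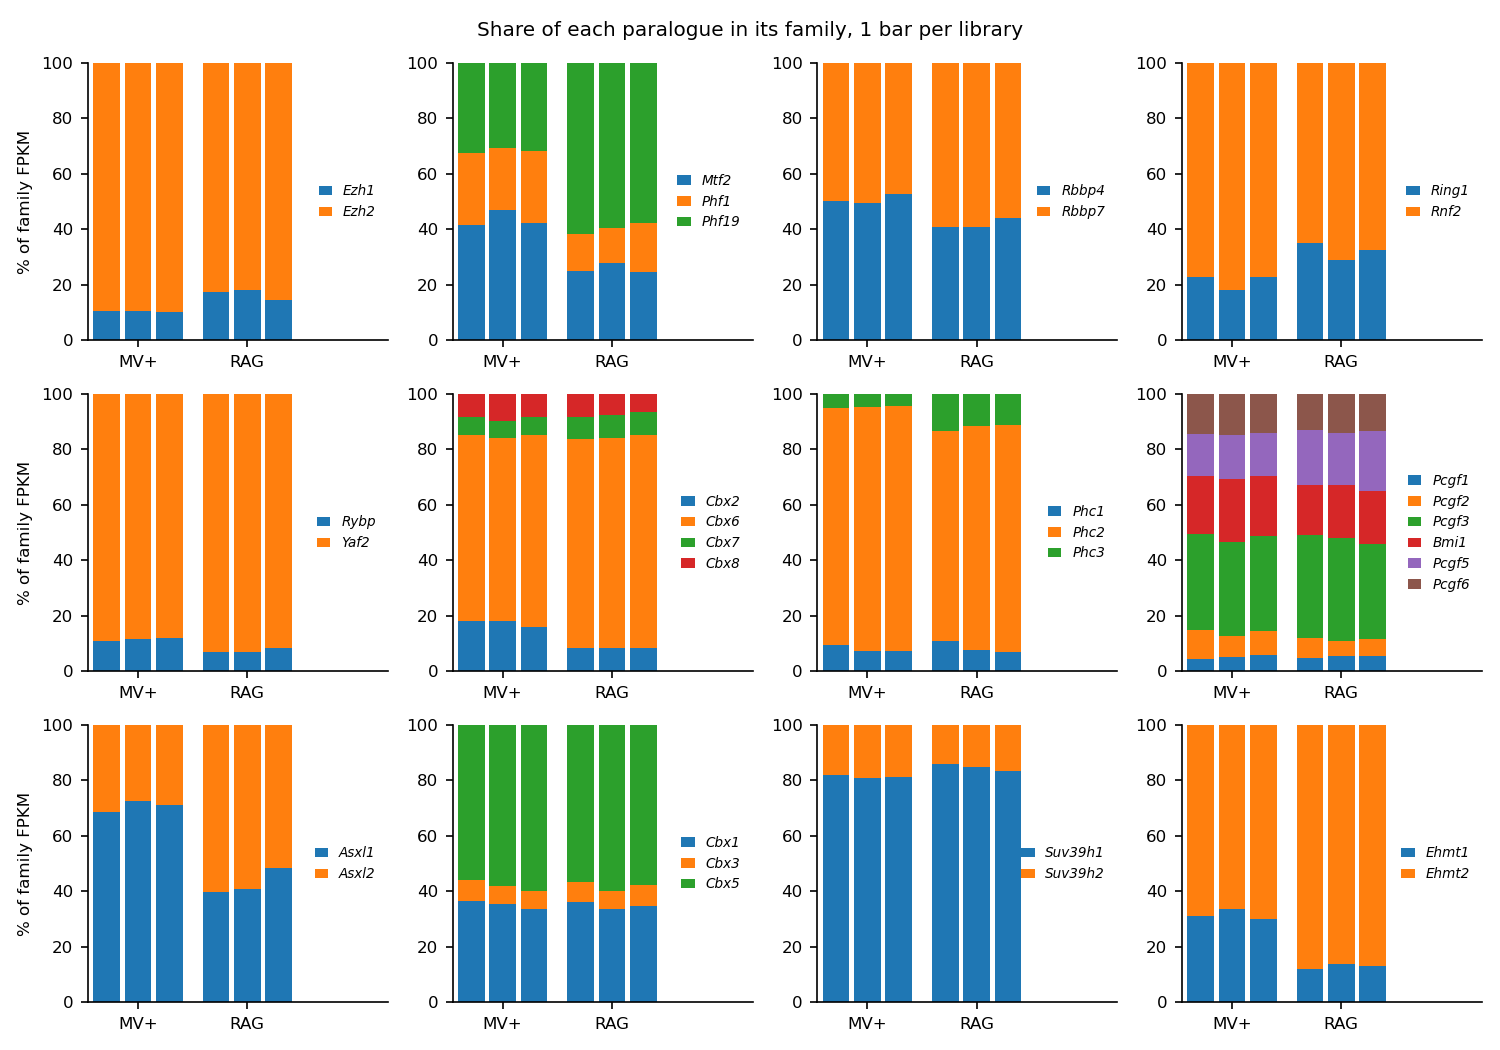
Percentage of the summed FPKM of each family held by each paralogue, 1 stacked bar per library, MV+ on the left and RAG on the right of each panel. The 3 bars of a line are alike, the Ehmt1 segment falls from about 32% in MV+ to 13% in RAG, the Asxl1 segment from about 71% to 43%, and the HP1 panel looks the same in both lines.

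Further genes of the same pathways were read from 5 lists of 68 genes, of which 63 could be tested. In MV+ 36 were higher and 10 were lower, together 73.0% beside 79.3% of all genes. Over all genes 40.4% were higher and 38.9% were lower. The 5 lists, in the order below, had called shares of 80.0%, 69.2%, 90.9%, 63.6% and 70.0%, and none was tested as a set. The median of the further genes was 0.27 on the log2 scale. On the FPKM scale, with its shift towards MV+, 41 were higher and 5 were lower.

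Of 5 further PRC2 and lysine 27 genes, 3 were higher in MV+ and 1 was lower. The PRC2 cofactor Epop, listed by its older symbol E130012A19Rik, was all but confined to MV+, with 11.5, 11.3 and 9.20 FPKM there and 1 count in the RAG libraries together. The ratio of its counts, 1468 against 1 after scaling by library size, was 2297 with a 95% counting interval from 412 to 90793. Its fitted log2 fold change of 10.64 became 12.28 without RAG library 1, the library with that count, and 9.99 without RAG library 3. Lcorl, which in mammals gives rise to a PRC2 cofactor, was lower in MV+ (-1.35 ± 0.09, edgeR adjusted p = 1.35e-09).

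Of 26 tested genes of PRC1 and H2A ubiquitin, 12 were higher and 6 were lower. Beside Bap1, the MYC partner Max, a subunit of the PCGF6 complex, was lower (-1.0 ± 0.08, edgeR adjusted p = 7.26e-09). Mysm1, another H2A deubiquitinase, had the reverse direction to Bap1, at 12.3, 14.1 and 13.1 FPKM in MV+ and 3.49, 4.20 and 3.92 in RAG (log2 fold change 1.59 ± 0.08, edgeR adjusted p = 4.78e-11). Mbd5, whose protein binds the BAP1 complex, and Bcor, a subunit of the PCGF1 complex, were higher by 0.65 and 0.47 on the log2 scale.

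Of 11 tested lysine 9 writers and cofactors, 8 were higher and 2 were lower. Cdyl2, a chromodomain protein gene, was another near on-off gene, with 501 counts in MV+ and 5 in RAG, a ratio of 157 after scaling (95% counting interval from 66.7 to 485), and its paralogue Cdyl was lower in MV+ (-0.89 ± 0.08). The fitted Cdyl2 value of 7.16 moved to 8.68 without RAG library 1 and 6.38 without RAG library 3. Prdm2 and Mecom, which encode PR domain proteins, were higher by 1.18 and 1.05 on the log2 scale, and Uhrf1, which links methylated lysine 9 to maintenance of DNA methylation, was lower (-0.55 ± 0.06, edgeR adjusted p = 1.28e-06).

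Of 11 genes of HP1 partners, the HUSH complex and lysine 20 methylation of histone H4, 6 were higher and 1 was lower. The HUSH subunit Tasor, listed as D14Abb1e, was higher (1.26 ± 0.09, edgeR adjusted p = 3.93e-09), and Mphosph8, the chromodomain subunit of the same complex, was lower (-0.36 ± 0.08, edgeR adjusted p = 9.59e-04), a call lost on the FPKM scale (-0.17, limma adjusted p = 0.0601). Kmt5b, listed as Suv420h1, writes methylation of lysine 20 downstream of HP1 and was higher (1.17 ± 0.07, edgeR adjusted p = 5.23e-10). Atrx, a remodeller of heterochromatin, was higher by 0.49.

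Of 10 tested lysine 9 demethylases, 7 were higher in MV+ and none was lower, while 3 did not pass the test. The called share was 70.0%, beside 79.3% of all genes. Kdm7a, listed as Jhdm1d, had a log2 fold change of 1.35 ± 0.12, Kdm3a of 0.95 ± 0.09 and Kdm4a of 0.87 ± 0.07.

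**Figure D5:**
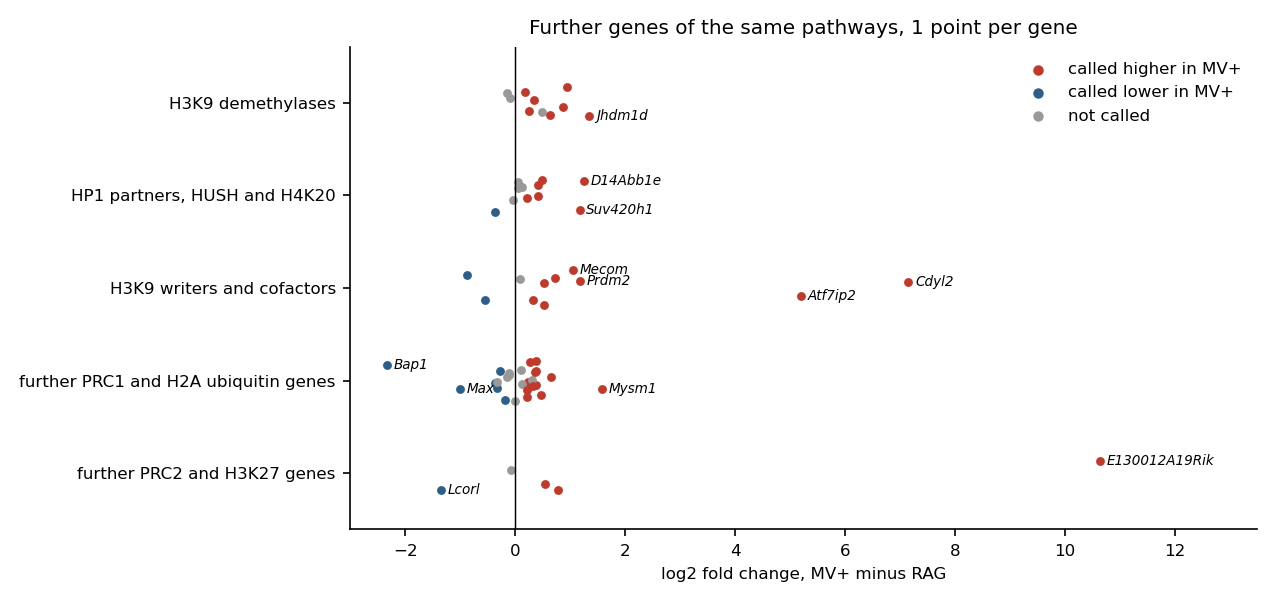
Log2 fold change (MV+ minus RAG) of the 63 tested further genes in 5 lists, 1 point per gene, coloured by call, with names where the absolute value exceeds 1 and vertical scatter within a list for legibility only. Bap1 lies farthest to the left at -2.34, and E130012A19Rik (Epop), Cdyl2 and Atf7ip2 lie far to the right with 5 or fewer counts in RAG.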

How the data were processed

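Total RNA was depleted of ribosomal RNA and sequenced as single reads of 50 bases with a kit not described as marking strand. Per the file headers and the published methods, reads had been aligned by the authors with TopHat2 version 2 (mm9) and SAMtools 1.6, and the deposited counts over RefSeq genes came from featureCounts (version 1.5.0-p3, defaults). Those defaults ignore strand and leave out reads that align to several places or overlap several genes. Exons of Cbx6 (12.1% of their length), Rbbp4 (11.8%), Rbbp7 (7.57%), Suv39h2 (4.90%), L3mbtl2 (3.24%) and Setdb1 (0.944%) overlap another gene. The deposited FPKM were made by the authors from those counts, exon length and the total of assigned counts, and recomputing them gave a largest relative difference of 2.7e-15. The counts were deposited in duplicate, without any cell that differed.

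The fit reported was edgeR 4.0.16 in R 4.3.3 (robust quasi-likelihood F-test, filterByExpr, TMM), two-sided, with Benjamini-Hochberg adjustment over 12965 genes and a call at 0.05. The standard error is the log2 fold change over the square root of F. The study's methods state no test. Libraries of a line differed by more than sampling noise (chi-square per degree of freedom from 8.87 to 92.7). A floor of 3 counts corresponds to 0.0695 to 0.172 CPM. Counting intervals are exact at 95% and cover counting error only.

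Members and lists were chosen with earlier results of these data known. All 41 members may be named, and of each further list up to 3 called genes per direction with the largest change and at least 1 CPM in the higher line. Of 68 further genes 6 were matched by an older symbol. Same-numbered libraries of the lines deviated together, with correlations of 0.508, 0.386 and 0.290, all over 0.1. Other pairs lay between -0.292 and -0.0643. Deviations were taken from the mean of a line and sum to 0, so these negative values are no separate evidence. The numbers were taken to pair the libraries in the replicate block only. The reported fit and the permutation tests did not use the pairing. This rests on the data, as the labels do not name a shared day. Alternatives were other normalizations and filters, DESeq2 1.42.0, limma 3.58.1 on log2(FPKM + 1) and log2(FPKM + 0.1), the replicate block, leaving out Rn45s or each library, and, added after the data were seen, leaving out MV+ libraries 1 and 2 and counts per unique window. Windows were matched exactly in the mm9 genome on chromosomes 1 to 19, X, Y and M, and all 41 members lay at their GENCODE vM1 genes. Promoters are from RefSeq on GRCm38.p6.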

Additional observations from a re-analysis of the deposited data

How the results depend on the processing

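Of 33 called members, 22 (15 higher and 7 lower in MV+) kept their call and direction in all 17 alternative fits. The number of members called was 33 in the fit reported, 32 with DESeq2, RLE, upper quartile, the CPM filter or no Rn45s, 31 without a filter and 27 to 29 on the FPKM scale. Members called lower in MV+ fell from 13 to 7 with limma on log2(FPKM + 1), with a pseudocount of 0.1 and without a filter, and further genes called lower fell from 10 to 5 in those same fits. By construction these fits do not hold the TMM factors, and they shifted all genes by 0.17 to 0.18 on the log2 scale, with 60.6% to 61.0% of called genes higher in MV+ against 50.9% in the reported fit. Rbbp4 was the one called member whose direction turned, to 0.0328, 0.033 and 0.0328 in these 3 fits. Among members not called, Ezh2, Suz12, Pcgf1 and Pcgf3 turned in them as well. On log2(FPKM + 1) they stood at 0.1526, 0.1112, 0.0784 and 0.0663.

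With the replicate block, 35 members were called (21 higher and 14 lower), as were 51 further genes and 10766 genes of all, against 33, 46 and 10285 without it. Rybp and Pcgf3 were the only members whose call the block changed. Leaving out 1 library in turn gave 30 to 32 members called, 17 to 20 of them higher and 12 to 13 lower, 41 to 47 further genes and 10005 to 10137 genes of all. Family shares without overlap numbered 26 to 27 without 1 library, 26 without division by length and 25 per unique window. Levels of members with copies, above all Cbx3, Rybp and Pcgf1, are limited by the reads left out in counting, and Kdm6b by its 182 counts in RAG. Strain differences in alignment, protein levels and histone marks were not analysed here.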

Other observations

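A few genes of the further lists lay at the edge of detection, and they are named here after their values were seen. Atf7ip2, a paralogue of the SETDB1 cofactor Atf7ip, had 34 counts in MV+ and 1 in RAG and was called higher in MV+ (edgeR adjusted p = 4.27e-06), with a ratio of 53.2 after scaling by library size (95% counting interval from 8.93 to 2162). Scml2, an X-linked gene of the PRC1 pathway, had 19 and 7 counts and was not tested, with a ratio of 4.25 (1.71 to 11.96). Scml4, Auts2, Prdm16 and Kdm4d, with between 0 and 21 counts per line, did not pass the low-count filter either, and no ratio is given for them.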
